A study of Arabidopsis thaliana with 4 samples.

Results

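The heat response of each gene in the larp1 mutant of Arabidopsis thaliana was set against its heat response in the wild type (WT), and the difference of the 2 responses is described here gene by gene. The difference is log2 of 38 °C over 20 °C in larp1 minus log2 of 38 °C over 20 °C in WT, with the worth of 1 read added to each level. It is positive where a transcript stood higher after heat in larp1 than its WT response would give, and negative where it stood lower. Of 25819 genes with a value, 19349 had 50 or more reads in a library of WT and in a library of larp1 and were compared. Nothing else was used to choose them.

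Plantlets of the Columbia-0 accession, WT or larp1 (called larp1-1 in the deposited gene lists), were grown for 21 days under continuous light on medium with sucrose. Pools of 6 to 8 whole plantlets were then kept for 15 min in liquid medium at 20 or at 38 °C. The 4 groups were WT and larp1, each kept at 20 °C or heated to 38 °C, with no other treatment, and each was 1 library made from 1 pool. The 20 °C groups were moved into liquid too, so the move is shared by all 4. There were no replicates, so no p-value is given, and each difference is between these 4 libraries and not shown for the conditions. Brackets give 95% intervals for counting error alone, since PCR copies are not independent molecules. A lower value in a pool can come from fewer cells of a type or from less RNA per cell, and these cannot be told apart.

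Plants answer heat through heat shock factors (HSFs), transcription factors that switch on the genes of heat shock proteins, the chaperones that hold, refold or pull apart damaged proteins. Heat also sets off the decay of many other mRNAs. In Arabidopsis LARP1, a La-related protein that binds RNA, is known to act in this decay with the 5′ to 3′ exonuclease XRN4. The comparison describes which transcripts differed between the larp1 and WT libraries in their change under heat, and it cannot show that a transcript needs LARP1.

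Levels are in RPM (reads per library of a fixed size), added up over the exon entries of a gene with repeats left out. Pairs of levels are given in the order 20 °C, then 38 °C. The depth behind them ranged from 42608500 to 74419700 reads per library, and 1 read was worth between 0.0134 RPM in larp1 at 20 °C and 0.0235 RPM in WT at 38 °C. LARP1A (AT5G21160), the gene named in the design, stood at 37.1 and 33.1 RPM in WT and 9.21 and 9.29 RPM in larp1, so both larp1 libraries carried less of it. The heat response of the remaining transcript differed by 0.18 [-0.02, 0.38] from that in WT. The paralogs LARP1B (AT5G66100) and LARP1C (AT4G35890) had differences of 0.44 [0.26, 0.63] and 0.50 [0.35, 0.65]. Markers of root and of green tissue were summed in each library to describe the make-up of the pools. The 12 root markers together stood at 76.3 and 35.5 RPM in WT and 73.9 and 42.8 RPM in larp1. The flower markers AP1, AP3, PI, AG, LFY, SEP1 and SEP3 together stayed between 0.24 and 0.57 RPM in all 4 libraries. The libraries hold whole plantlets, and their photosynthesis transcripts are described below.

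A gene was called when the difference was at least 2-fold (1 on the log2 scale) and its interval excluded 0. Of the 19349 genes compared, 399 were called in the positive direction, which is 2.06%, and 128 in the negative direction, which is 0.662%. Calls in either direction made up 2.72%. Every count of a list below is read against these shares, which were not matched to the depth of the list. The positive direction held 75.7% of the calls, but 61.6% under TMM scaling and 63.5% under median-of-ratios scaling, since the median over all genes, 0.10, moved to -0.01 and 0.00. Both are ways to set the libraries level by the bulk of their genes. The share called fell with depth. It was 24% of the 212 genes with fewer than 10 reads in their lowest library and 14.2% of the 1906 with 10 to 49. Most calls came from these genes, with 34 and 210 of the 399 positive calls and 16 and 61 of the 128 negative calls. Of the 4517 genes with at least 1000 reads in every library 0.509% were called.

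**Figure D1:**
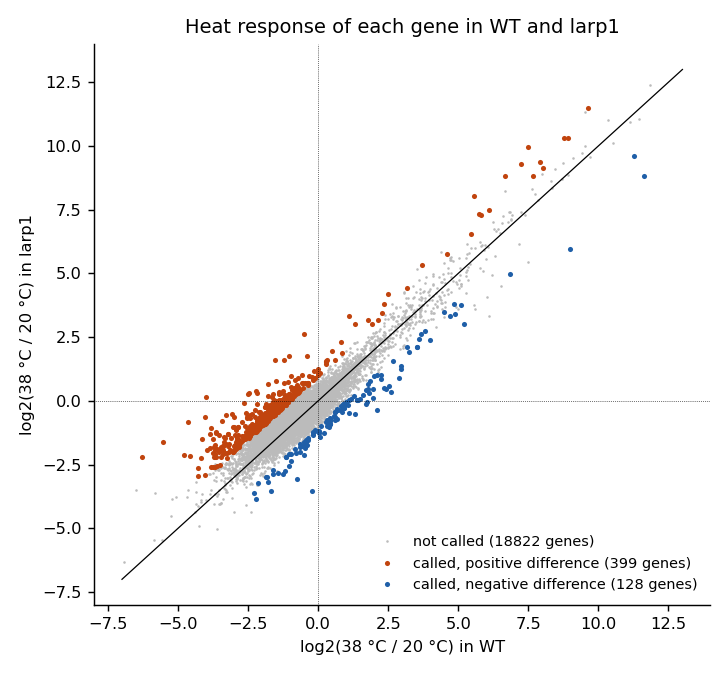
Heat response of the 19349 genes compared, as log2 of 38 °C over 20 °C, in WT (x axis) and larp1 (y axis). Each point is a gene, the line marks equal responses, and the coloured points are the 399 genes called positive, above the line, and the 128 called negative, below it.

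Most of the positive genes were transcripts lowered by heat in WT. Transcripts fell in general, with a median heat response over all genes compared of -0.51 in WT and -0.42 in larp1. The share of all genes in each class below is not given, so the counts are not read as a trait of the called genes. Counted by the same 2-fold rule within each genotype, 119 of the 399 were lower after heat in both genotypes, 191 were lower in WT and not called in larp1, and 3 were lower in WT and higher in larp1. Another 25 were higher in both, 16 were higher in larp1 without a call in WT, and 45 were called in neither. The negative genes were spread otherwise. Of the 128, 31 were higher after heat in WT without a call in larp1, 23 were higher in both, 31 were lower in larp1 without a call in WT, 16 were lower in both and 27 were called in neither. The same WT libraries enter the difference and these classes, so the classes are a description and no independent evidence.

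The genotypes can differ before heat, after heat, or both. A ratio of larp1 to WT of at least 1.5-fold was found at 38 °C alone for 228 of the 399 positive genes, which is 57.1%, and at 20 °C alone for 80. In 47 more larp1 was the lower at 20 °C and the higher at 38 °C, in 40 it differed the same way at both temperatures, and 4 stayed under 1.5-fold at each. Of the 128 negative genes 60 differed at 20 °C alone, 36 at 38 °C alone, 6 in opposite ways, 21 in the same way and 5 at neither. The counts at 38 °C alone depend on the scaling. Under TMM and median-of-ratios scaling alike 144 positive genes differed at 38 °C alone, while the negative genes of that class were 66 and 64, beside 78 and 74 that differed at 20 °C alone.

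**Figure D2:**
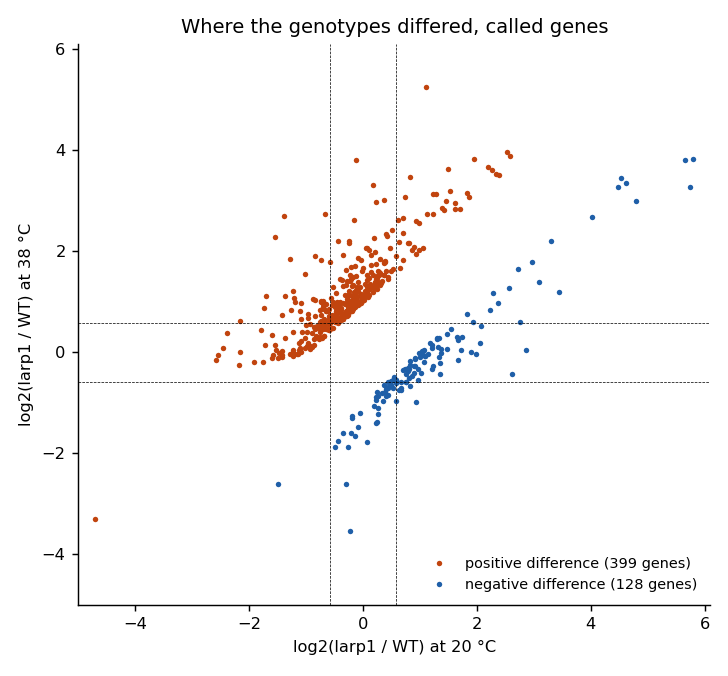
Ratio of larp1 to WT at 20 °C (x axis) and at 38 °C (y axis), both as log2, for the 399 genes with a positive and the 128 with a negative difference. Each point is a gene and dashed lines mark 1.5-fold; 228 of the positive points lie within the lines on the x axis and outside them on the y axis.

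Enough exon entries to compare were available in 98 of the 399 positive and 18 of the 128 negative genes. In most of these the reads of different exons gave the same direction. Among the positive genes with at least 3 exon entries of at least 20 reads, 90 of 98 had a positive difference in every entry, which is 91.8%, and among the negative genes 17 of 18 had a negative one. For genes that were not called the shares were 26.6% of 7260 with a positive and 22.5% of 3884 with a negative difference. The exons of a gene come from the same 4 libraries and are not replicates. Since the entries are parts of the summed value that was called, most of this agreement is fixed by the call, and it lends no support.

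The large chaperones and their helpers were the list with the highest median difference, and in the 9 members called it lay in the plantlets kept at 20 °C. Of 31 members compared, 9 were called positive and 0 negative, with a median of 0.48, and 28 lay above the median of all genes. At 38 °C the levels of larp1 and WT were close, with a list median of 0.03 and 0 of 31 members at least 1.5-fold lower in larp1. At least 1.5-fold higher there were 2, BIP3 (AT1G09080) at 2.17 on the log2 scale, which was also higher at 20 °C, and mtHSC70-1 (AT4G37910) at 0.73. At 20 °C 12 of 31 stood at least 1.5-fold lower in larp1, which is 38.7% against 2.11% of all genes, with a list median of -0.41. Under TMM and median-of-ratios scaling 9 members were called positive too, and with the largest exon entry alone 7 of 30, without HOP3 and ROF2.

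HSP90.1 (AT5G52640), the heat-induced cytosolic HSP90, stood at 72.9 and 7393 RPM in WT and 16.4 and 7425 RPM in larp1. Its difference was 2.16 [2.07, 2.25], with larp1 at 20 °C as the low library and the 38 °C libraries alike. HSP101 (AT1G74310), the disaggregase that pulls proteins out of aggregates, stood at 43.2 and 10466 RPM in WT and 16.1 and 10666 RPM in larp1, a difference of 1.45 [1.35, 1.56]. HSP70-4 (AT3G12580), a heat-induced cytosolic HSP70, stood at 160.4 and 8595 RPM in WT and 55.7 and 8914 RPM in larp1, a difference of 1.58 [1.52, 1.63]. HSP70-3 (AT3G09440), already abundant at 20 °C, stood at 1811 and 9143 RPM in WT and 651.9 and 9021 RPM in larp1. Its difference was 1.45 [1.44, 1.47], with 5 exon entries that ranged from 0.16 to 1.46. In each of these genes the library of larp1 at 20 °C stood lowest, and both heated libraries stood close together.

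The cytosolic HSP90.2 (AT5G56030) and HSP90.3 (AT5G56010) had differences of 1.25 [1.23, 1.27] and 1.16 [1.13, 1.19]. HSP90.2 stood at 1340 and 12201 RPM in WT and 552.5 and 11943 RPM in larp1. The coding sequences of HSP90.2, HSP90.3 and HSP90.4, and those of the cytosolic HSP70s, are much alike, so how reads were shared among them is uncertain. Co-chaperones followed: HOP3 (AT4G12400), which links HSP70 to HSP90, had 1.13 [0.99, 1.28], the immunophilin ROF2 (AT5G48570) 1.17 [0.97, 1.37] and FES1A (AT3G09350), which holds cytosolic HSP70 stable, 1.48 [1.35, 1.61]. FES1A stood at 27.7 and 1549 RPM in WT and 9.19 and 1433 RPM in larp1. HSP101, HSP70-3 and FES1A overlap other annotated genes, and no source used here says whether reads were assigned by strand.

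The organelle members were closer to no difference. The chloroplast CLPB3 (AT5G15450) had 0.15, the mitochondrial CLPB4 (AT2G25140) -0.00, the plastid HSP90.5 (AT2G04030) 0.10 and the mitochondrial HSP90.6 (AT3G07770) -0.06. HSC70-1 (AT5G02500), the constitutive cytosolic HSP70 and the member with the highest mean level, stood at 5429 and 10395 RPM in WT and 3693 and 9266 RPM in larp1, a difference of 0.39 [0.38, 0.40] that was not called. BIP1 (AT5G28540) and BIP2 (AT5G42020), HSP70s of the endoplasmic reticulum, had 0.57 and 0.50, and in these the larger gap lay at 38 °C, where larp1 stood higher.

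Among the HSFs and early heat regulators 1 of 24 was called positive and 1 negative, and the list median was 0.13. The positive gene was HSFA2 (AT2G26150), a heat-induced HSF that prolongs the response. It stood at 20.5 and 3677 RPM in WT and 3.51 and 3548 RPM in larp1, a difference of 2.49 [2.3, 2.69]. Its 3 exon entries ranged from 0.69 to 2.55. As for the chaperones, the low library was larp1 at 20 °C. The constitutive factor HSFA1A (AT4G17750) had 0.47 [0.03, 0.90], HSFA7A (AT3G51910) 0.67 [0.49, 0.86] and the coactivator MBF1C (AT3G24500), which had the highest mean level, 0.56 [0.47, 0.66]. The negative gene was DREB2C (AT2G40340), a transcription factor that can induce HSFA3, at 0.61 and 4.83 RPM in WT and 2.64 and 6.89 RPM in larp1, a difference of -1.56 [-2.18, -0.94]. APX2 (AT3G09640), an ascorbate peroxidase induced by HSFA2, had 1 read in WT and 0 in larp1 at 20 °C, which allows up to 0.0403 RPM in larp1, and stood at 31.0 and 34.5 RPM at 38 °C, so its difference could not be measured at this depth.

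The stretch upstream of HSFA2 is shown because it holds the paired nGAAn blocks to which HSFs bind. Capitals mark GAANNTTC and TTCNNGAA, each of which reads the same on both strands; the first GAANNTTC overlaps a TTCNNGAA, and a second GAANNTTC follows nearer to the start. It covers 158 bases of RefSeq's TAIR10.1 assembly on the plus strand, chr2:11135466-11135623, and ends just before the start of the first listed transcript.

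HSFA2: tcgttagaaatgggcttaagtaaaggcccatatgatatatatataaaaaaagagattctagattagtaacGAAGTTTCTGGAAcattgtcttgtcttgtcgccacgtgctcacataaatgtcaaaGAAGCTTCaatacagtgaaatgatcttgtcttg

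GAANNTTC was present in the 250 bases upstream of 8.79% of the positive genes, 13.5% of the negative genes and 9.49% of all nuclear genes compared. Of the 9 chaperones called it was present in 1. The windows are short, and a block outside them was not looked for.

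The small heat shock proteins, which hold unfolding proteins in solution, differed in both directions. Of 17 members compared, 2 were called positive and 2 negative, and the median was -0.07. HSP17.8-CI (AT1G07400) stood at 9.40 and 4090 RPM in WT and 3.12 and 3945 RPM in larp1, a difference of 1.54 [1.31, 1.77]. HSP17.6A-CI (AT1G59860) had 1.37 [1.09, 1.65], also with larp1 at 20 °C as the low library. HSP23.6-MTI (AT4G25200), a mitochondrial form, stood at 0.50 and 1666 RPM in WT and 3.78 and 1713 RPM in larp1. Its difference of -2.82 [-3.42, -2.22] was the most negative of the genes named, with WT at 20 °C, on 23 reads, as the low library. HSP17.4-CI (AT3G46230) had -1.68 [-2.12, -1.23] on 47 reads in WT at 20 °C. Its entry carries the name of a neighbouring locus that overlaps it, and the class I genes resemble one another, so its level at 20 °C is uncertain. At 38 °C the ratio of larp1 to WT of these 4 genes lay between -0.13 and 0.05 on the log2 scale.

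**Figure D3:**
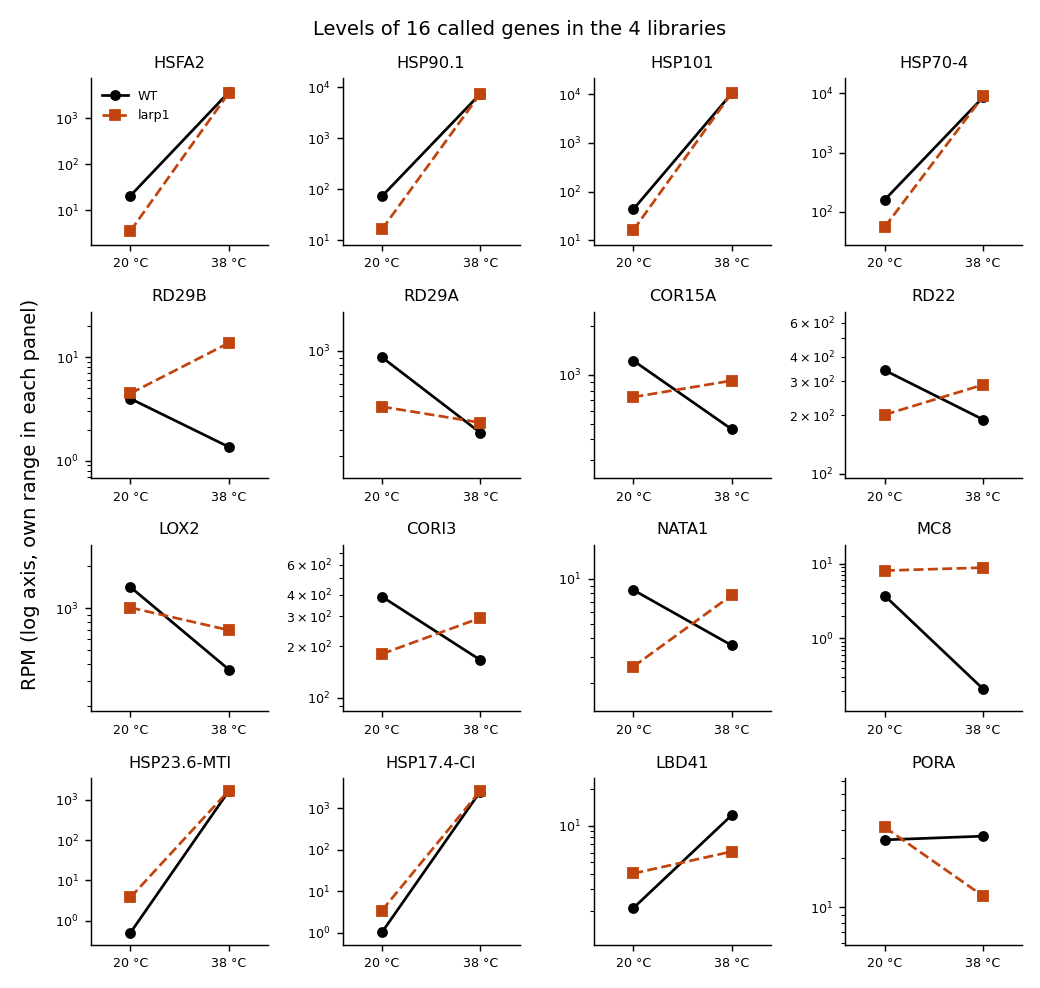
Levels of 16 called genes in RPM on a log axis at 20 and 38 °C, each point 1 library, WT as black circles and larp1 as orange squares. In HSFA2 and the 3 chaperones the points meet at 38 °C and part at 20 °C, whereas in RD29B and MC8 the wider gap is at 38 °C.

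Genes of abscisic acid (ABA), the hormone of drought and seed maturation, and of dehydration held 5 positive and 0 negative calls among 37 members compared, with a median of 0.27. The difference here lay on both sides. At 38 °C 9 of the 37 stood at least 1.5-fold higher in larp1, which is 24.3% where all genes gave 10.6%. At 20 °C 8 already stood higher by as much, which is 21.6% against 6.16% of all genes, and 6 lower, which is 16.2% against 2.11%. The ratio of larp1 to WT had a list median of -0.03 before and 0.34 after heat. Under TMM scaling the positive calls were 5 and the negative calls 2, NCED3 (AT3G14440) at -1.02 and the transcription factor gene NAC019 (AT1G52890) at -1.01.

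RD29B (AT5G52300), a dehydration-induced gene driven through ABA, stood at 3.97 and 1.36 RPM in WT and 4.47 and 13.7 RPM in larp1, a difference of 3.14 [2.68, 3.61]. The genotypes were alike at 20 °C, and after heat WT stood lower and larp1 higher. RD29A (AT5G52310), its neighbour on the chromosome, stood at 905.0 and 286.7 RPM in WT and 425.9 and 334.1 RPM in larp1, a difference of 1.31 [1.27, 1.35]. Unlike RD29B, it differed between the genotypes mainly at 20 °C, where larp1 was lower. COR15A (AT2G42540), which encodes a chloroplast protein that protects membranes in the cold, stood at 1223 and 462.0 RPM in WT and 729.4 and 920.7 RPM in larp1, a difference of 1.74 [1.71, 1.77]. Here larp1 was the lower at 20 °C and the higher at 38 °C, and each of its 5 exon entries was positive, from 1.64 to 1.84.

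RD22 (AT5G25610), a dehydration gene downstream of the ABA factors MYC2 and MYB2, stood at 340.8 and 190.3 RPM in WT and 201.6 and 287.3 RPM in larp1, a difference of 1.35 [1.3, 1.4]. LEA4-5 (AT5G06760), a late embryogenesis abundant protein, had 1.75 [1.29, 2.21]. Both crossed in the same way as COR15A, but their exon entries were less even. Of the 4 entries of RD22 3 were positive and 1 was negative, from -0.42 to 1.67. The 2 entries of LEA4-5 gave 0.58 and 1.91. Just under the threshold were COR47 (AT1G20440) at 0.96, KIN1 (AT5G15960) at 0.94 and RAB18 (AT5G66400) at 0.87. ERD10 (AT1G20450), a dehydrin and the member with the highest mean level, had 0.30. Members below 0 that were not called included NCED3 (AT3G14440), the rate-limiting enzyme of ABA synthesis, with -0.91 [-1.08, -0.74], and the phosphatase HAI1 (AT5G59220), a brake on ABA signalling, with -0.79 [-0.94, -0.65]. Both stood higher in larp1 at 20 °C, NCED3 at 23.2 RPM against 10.3 RPM in WT. LEA7 (AT1G52690), not in the list, had 2.46 [1.98, 2.93], and overlaps another annotated gene.

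The 250 bases before the first listed transcripts of the 3 cold and dehydration genes follow, because these members moved together while differing in where the genotypes parted. Capitals mark ACGTG or CACGT, the core of the ABA-responsive element read on either strand, and CCGAC or GTCGG, the core of the dehydration-responsive element. They are from RefSeq's TAIR10.1 assembly: RD29B from chr5:21236771-21237020 and RD29A from chr5:21240467-21240716, both on the plus strand, and COR15A from chr2:17712331-17712580 on the minus strand, each written 5′ to 3′ along its gene.

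RD29B: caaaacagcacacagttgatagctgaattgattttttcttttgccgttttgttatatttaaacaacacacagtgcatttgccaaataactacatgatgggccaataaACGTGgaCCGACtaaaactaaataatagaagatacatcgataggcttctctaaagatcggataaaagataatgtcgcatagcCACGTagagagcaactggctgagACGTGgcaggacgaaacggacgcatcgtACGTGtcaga

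RD29A: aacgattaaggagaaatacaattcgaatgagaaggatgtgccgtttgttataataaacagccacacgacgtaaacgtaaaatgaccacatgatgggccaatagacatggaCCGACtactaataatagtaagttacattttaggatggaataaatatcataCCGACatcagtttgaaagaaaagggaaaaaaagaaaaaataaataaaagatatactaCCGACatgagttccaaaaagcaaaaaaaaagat

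COR15A: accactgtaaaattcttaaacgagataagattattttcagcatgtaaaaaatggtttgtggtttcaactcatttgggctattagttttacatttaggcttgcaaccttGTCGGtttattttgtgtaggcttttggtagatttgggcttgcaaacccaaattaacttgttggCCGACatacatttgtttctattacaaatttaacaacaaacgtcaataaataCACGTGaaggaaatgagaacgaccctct

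The RD29B window held 4 matches to the ABA-responsive core and 1 to the dehydration-responsive core. The RD29A window held 0 and 3, and the COR15A window 2 and 2, where the first 2 share 1 CACGTG. The ABA-responsive core was present upstream of 4 of the 5 called list members, 19 of the 37 compared, 30.7% of all positive genes, 33.3% of the negative genes and 24.3% of nuclear genes compared. The dehydration-responsive core was present in 14.8%, 14.3% and 13.5% of the last 3 sets. A match describes the letters and is not a binding site.

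Genes of jasmonate, the wound hormone, were divided, with 3 positive and 1 negative call among 34 and a median of -0.00. LOX2 (AT3G45140), the plastid lipoxygenase that feeds jasmonate synthesis, stood at 1422 and 364.1 RPM in WT and 1012 and 698.2 RPM in larp1, a difference of 1.43 [1.4, 1.46]. CORI3 (AT4G23600), a coronatine-induced cystine lyase, stood at 390.1 and 166.3 RPM in WT and 180.4 and 292.5 RPM in larp1, a difference of 1.93 [1.87, 1.98]. NATA1 (AT2G39030), which makes the defence compound acetylornithine, stood at 8.40 and 3.57 RPM in WT and 2.57 and 7.75 RPM in larp1, a difference of 2.82 [2.45, 3.19]. CORI3 and NATA1 were lower in larp1 than in WT at 20 °C and higher at 38 °C, and LOX2 was higher in larp1 at 38 °C.

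ARGAH2 (AT4G08870), a jasmonate-induced arginase outside the list, had the same crossing, at 113.5 and 24.7 RPM in WT and 47.1 and 43.9 RPM in larp1, a difference of 2.09 [1.97, 2.22]. The early jasmonate regulators were not called. MYC2 (AT1G32640), the leading transcription factor, had -0.17, the repressor JAZ1 (AT1G19180), with the highest mean level, -0.32 and JAZ10 (AT5G13220) -0.03. The negative call was PDF1.2 (AT5G44420), a defensin, with -1.11 [-1.76, -0.45] at no more than 2.34 RPM.

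The gene with the largest positive difference by its interval was MC8 (AT1G16420), a metacaspase, that is, a caspase-like protease of plants. It stood at 3.71 and 0.21 RPM in WT and 8.06 and 8.83 RPM in larp1, a difference of 4.13 [3.19, 5.07]. The WT library at 38 °C, with 9 reads, was far below the other 3. The other 8 metacaspases compared were not called and ranged from -0.09 to 0.49. ATCSLA15 (AT4G13410), of the cellulose synthase-like A family, stood at 4.60 and 0.16 RPM in WT and 1.56 and 0.87 RPM in larp1, a difference of 3.84 [2.69, 4.98] on 7 reads in WT at 38 °C. Of its 10 exon entries 1 had enough reads to compare, and it gave 1.89, below that interval, so the size is uncertain. The lectin receptor kinase AT3G08870, on 3 reads in that library, had 3.93 [2.45, 5.42].

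Further positive genes at higher depth were the DUF677 membrane protein AT3G28270, at 63.1 and 13.9 RPM in WT and 24.3 and 29.9 RPM in larp1 with a difference of 2.48 [2.32, 2.64], and the 6-phosphogluconolactonase PGL5 (AT5G24420), an enzyme of the pentose phosphate pathway, with 2.29 [2.1, 2.47]. AT3G28220, a TRAF-like protein next to AT3G28270 among the genes compared, had 1.87 [1.76, 1.98]. All 3 were lower in larp1 at 20 °C and higher at 38 °C. The chitinase AT2G43620 stood at 12.3 and 6.03 RPM in WT and 2.33 and 7.85 RPM in larp1, a difference of 2.77 [2.44, 3.11], and the low library was larp1 at 20 °C. At lower depth, GolS3 (AT1G09350), a galactinol synthase of cold-stressed leaves, had 2.77 [1.93, 3.61] on 20 reads in WT at 38 °C. The exocyst subunit EXO70H1 (AT3G55150) and the ankyrin protein AT4G11000 had 2.78 [2.08, 3.47] and 2.64 [2.14, 3.14]. In both WT at 38 °C was the low library, on 23 and 37 reads.

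Among genes that differed at 38 °C alone, those with most reads after LOX2 were ACD6, AT4G18440, ABCG22 and AT4G21910. ACD6 (AT4G14400), an ankyrin membrane protein of defence, stood at 172.4 and 29.9 RPM in WT and 153.6 and 59.0 RPM in larp1, a difference of 1.15 [1.04, 1.25]. ABCG22 (AT5G06530), a transporter that acts in stomatal closure, had 1.11 [0.99, 1.23], the MATE transporter AT4G21910 had 1.18 [1.06, 1.29] and the L-aspartase-like AT4G18440 1.07 [0.98, 1.16]. Apart from AT4G21910, these stood lower after heat in both genotypes and less so in larp1. AT4G18440 was not called under TMM or median-of-ratios scaling.

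DREB19 (AT2G38340), an AP2/ERF factor of the DREB2 group, stood at 1.22 and 7.51 RPM in WT and 13.5 and 17.2 RPM in larp1, a difference of -2.24 [-2.67, -1.81]. It overlaps 3 annotated genes and its entry carries a neighbour's name. The C2H2 zinc finger gene AT3G46080 stood at 5.56 and 43.5 RPM in WT and 47.4 and 113.5 RPM in larp1, a difference of -1.70 [-1.90, -1.51]. AT5G13210, a gene of unknown function, had -1.3 [-1.43, -1.18]. In all 3 larp1 was the higher genotype at both temperatures, and the gap was wider at 20 °C.

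In the list of 24 rapid stress and touch genes 0 were called positive and 1 negative, DREB19, with a median of -0.30. Of these 24, 13 stood at least 1.5-fold higher in larp1 at 20 °C, which is 54.2% against 6.16% of all genes, and 7 at 38 °C, which is 29.2% where all genes gave 10.6%. ERF6 (AT4G17490) had -0.93 [-1.02, -0.84], ZAT12 (AT5G59820), a zinc finger factor of many stresses, -0.87 [-0.95, -0.79], and the calmodulin-like TCH3 (AT2G41100), the member with the highest mean level, -0.43 [-0.45, -0.42]. ERF6 stood at 83.0 and 86.7 RPM in WT and 126.7 and 69.5 RPM in larp1. These 3 were not called, though ERF6 was under TMM scaling, at -1.04, and under median-of-ratios scaling, at -1.03.

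Low-oxygen genes held 1 positive and 2 negative calls among 24, with a median of -0.32. LBD41 (AT3G02550), a transcription factor induced by hypoxia, stood at 2.11 and 12.1 RPM in WT and 4.05 and 6.12 RPM in larp1, a difference of -1.92 [-2.31, -1.53]. It was higher in larp1 at 20 °C and lower at 38 °C. HRA1 (AT3G10040), which restrains the hypoxia response, had -1.40 [-2.14, -0.66], and AT1G33055 had 1.70 [0.78, 2.62]. The last stayed at or below 2.03 RPM, and its entry carries the name of the gene that overlaps it. ADH1 (AT1G77120) and PDC1 (AT4G33070), the enzymes of fermentation, had 0.25 and 0.48 and were not called.

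Salicylic acid defence genes held 2 positive and 1 negative call among 18, with a median of -0.04. In this list larp1 was higher than WT in all 18 members at each temperature, with medians of 0.80 at 20 °C and 0.89 at 38 °C, so most of the genotype gap was outside the difference. WRKY54 (AT2G40750), a transcription factor of this pathway, stood at 14.9 and 1.46 RPM in WT and 20.1 and 7.30 RPM in larp1, a difference of 1.88 [1.47, 2.29]. NIMIN2 (AT3G25882), an interactor of the receptor NPR1, had 1.13 [0.54, 1.71], a call that was lost with a pseudocount of 0.5 RPM. FMO1 (AT1G19250), which makes the immune signal N-hydroxypipecolic acid, stood at 2.01 and 4.22 RPM in WT and 45.4 and 41.1 RPM in larp1, a difference of -1.21 [-1.58, -0.84].

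Other negative genes differed at 38 °C, at 20 °C or at both. PORA (AT5G54190), an enzyme of chlorophyll synthesis, stood at 26.0 and 27.4 RPM in WT and 31.1 and 11.7 RPM in larp1, a difference of -1.48 [-1.66, -1.31], and all 5 of its exon entries with enough reads were negative. The seed storage gene SESA1 (AT4G27140) had -1.63 [-2.1, -1.17], and DEAR2 (AT5G67190), an AP2 factor, -1.85 [-2.62, -1.09] on 19 reads in larp1 at 38 °C. In these 3 the low library was larp1 at 38 °C. AT2G29310, of the Rossmann-fold superfamily, had -1.5 [-1.87, -1.12] and was higher in larp1 at 20 °C and lower at 38 °C. The berberine-bridge enzyme-like AT1G26390 had -1.82 [-2.26, -1.38], the germin-like GLP6 (AT5G39100) -1.86 [-2.54, -1.19], AT3G48240 -2.0 [-2.83, -1.18], AT1G07500 -1.57 [-1.87, -1.27] and AT1G05575 -1.16 [-1.3, -1.02]. These 5 differed by at least 1.5-fold at 20 °C alone, where larp1 was higher, and the last 2 overlap other annotated genes.

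**Figure D4:**
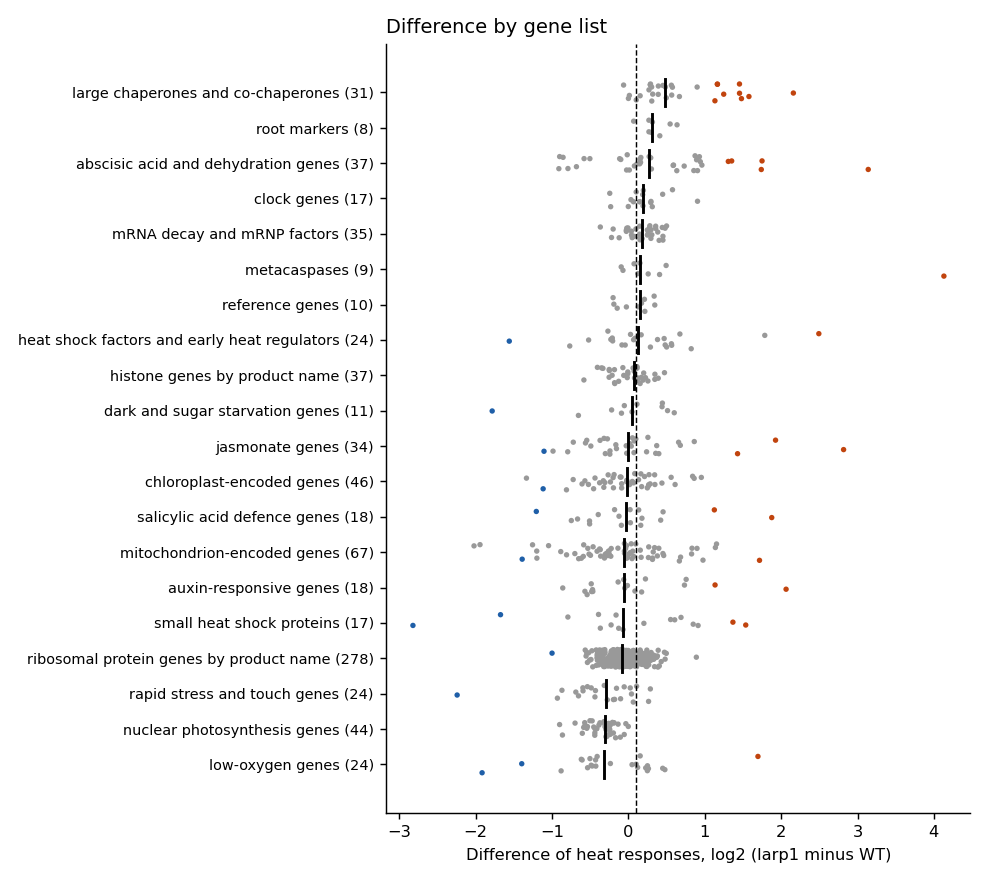
Difference of heat responses of each compared member (points) of 20 lists, with the number of members compared in brackets, the list median as a black bar and the median of all genes as a dashed line. Orange points were called positive and blue points negative; the large chaperones have the highest list median, 0.48, and the low-oxygen and photosynthesis genes the lowest, -0.32 and -0.30.

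The nuclear photosynthesis genes had small differences of 1 direction. All 44 were below 0, from -0.90 to -0.00, with a median of -0.30 against 0.10 over all genes, and none was called. Under TMM scaling 1 was called, LHCB2.3 at -1.01. All 44 were negative under TMM and median-of-ratios scaling too, and 43 with totals that left out organelle genes. At 38 °C all 44 were lower in larp1 than in WT, by a median of -0.46, and 10 of them at least 1.5-fold, while at 20 °C 38 were lower, by a median of -0.11. LHCB2.3 (AT3G27690), a light-harvesting protein of photosystem II, stood at 410.0 and 418.1 RPM in WT and 408.2 and 222.8 RPM in larp1, a difference of -0.90 [-0.95, -0.86]. LHCB1.2 (AT1G29910) had -0.86 [-0.88, -0.85] and LHCB3 (AT5G54270) -0.70 [-0.72, -0.68], with larp1 at 38 °C as the low library in each. LHCB1.3 (AT1G29930), with the highest mean level, stood at 22288 and 16035 RPM in WT and 21123 and 11220 RPM in larp1. Near-identical members of the LHCB1 group may share reads. The summed level of the 44 genes was 115680 and 100547 RPM in WT and 106473 and 70688 RPM in larp1.

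Of the 12 root markers 8 were compared, and all 8 had a difference above 0, with a median of 0.31. The median of all genes was 0.10, and 7 of the 8 lay above it. Under TMM and median-of-ratios scaling, and with the largest exon entry alone, 7 of 8 were above 0. With no read minimum 10 of 12 were. None was called. SCR (AT3G54220), a factor of the root endodermis, stood at 29.3 and 6.58 RPM in WT and 27.2 and 9.51 RPM in larp1, a difference of 0.64 [0.40, 0.88]. EXPA7 (AT1G12560), an expansin of root hairs, had 0.55 and COBL9 (AT5G49270), also of root hairs, 0.41. At 38 °C all 8 root markers were higher in larp1 than in WT, by a median of 0.23, and 0 of them at least 1.5-fold. The median over all genes there was 0.14. The photosynthesis genes were lower, by a median of -0.46. These values stand beside every positive gene that differed at 38 °C. Their part in those differences was not tested.

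**Figure D5:**
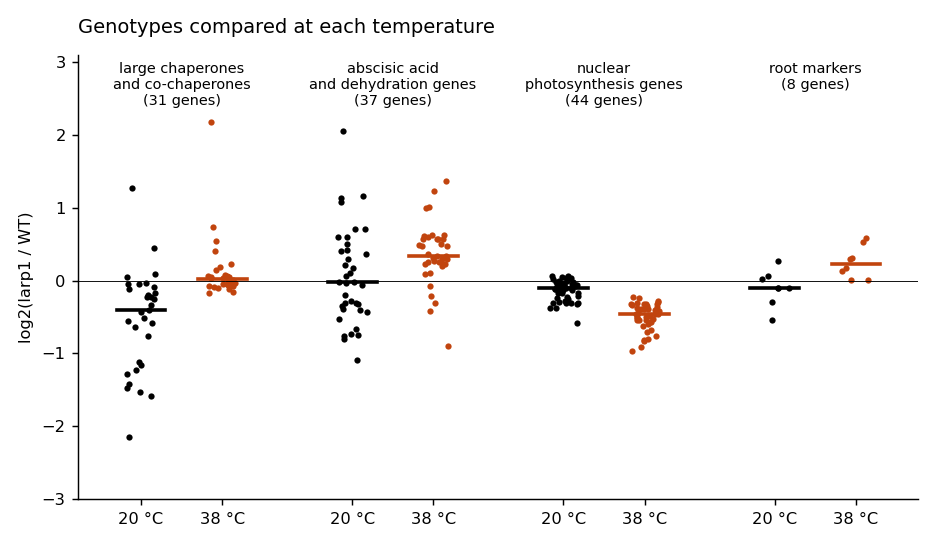
Ratio of larp1 to WT as log2 at 20 °C (black) and 38 °C (orange) for each compared member of 4 lists, with bars at the medians. The chaperone median is -0.41 at 20 °C and 0.03 at 38 °C, whereas the photosynthesis median is -0.11 and -0.46.

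Genes of mRNA decay, the process in which LARP1 acts, had no call among 35, with a median of 0.18, which was 0.07 under TMM scaling. XRN4 had 0.28, the decapping factors DCP2 and VCS 0.05 and 0.38, the deadenylation scaffold NOT1 (AT1G02080) 0.48 [0.36, 0.60], the deadenylase PARN (AT1G55870) 0.45 [0.09, 0.81] and the poly(A)-binding protein PAB2 (AT4G34110) 0.04. Clock genes had 0 calls among 17, with a median of 0.19 and FKF1 (AT1G68050) highest at 0.90. Auxin-responsive genes had 2 positive calls among 18, SAUR36 (AT2G45210) at 2.06 [0.85, 3.28] on 6 reads in WT at 38 °C and SAUR9 (AT4G36110) at 1.13 [0.47, 1.80], both lost with a pseudocount of 0.5 RPM. Dark and sugar starvation genes had 1 negative call among 11, the glucosidase BGLU30 (AT3G60140) at -1.78 [-2.51, -1.06], and ASN1 (AT3G47340), an asparagine synthetase, had -0.66.

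The reference genes had 0 calls among 10 and a median of 0.15, with PP2AA3 (AT1G13320) at 0.35, ACT2 (AT3G18780) at 0.22 and UBQ10 (AT4G05320) at -0.19. Histone genes had 0 calls among 37, with a median of 0.07 that turned to -0.04 under TMM scaling. Genes with a ribosomal protein product name had 1 negative call among 278, AT1G57540 at -1.0 [-1.3, -0.70], and a median of -0.08. Of 67 mitochondrion-encoded genes 1 was called in each direction, ATMG00130 at 1.72 and ATMG00640 at -1.39, and of 46 chloroplast-encoded genes 1 was negative, ATCG00330 at -1.12. These 3 were below 10 RPM in every library. The share of calls was 0% for the reference and histone lists and 0.36% for the ribosomal one, against 2.72% of all genes. It was 2.99% for the mitochondrion-encoded and 2.17% for the chloroplast-encoded genes. The 2.72% was not matched to the depth of any list, and the share called fell with depth. Of the genes with at least 1000 reads in every library 0.509% were called. Whether these lists differ from genes of like depth was not tested.

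Called genes shared some features of structure. The positive nuclear genes had a median of 3 exons and the negative ones of 2, against 5 over all nuclear genes compared, and 31.7% and 42.9% had 1 exon against 16.5%. The coding length was 1236 bases in the median for positive, 639 for negative and 1161 for all genes. Their highest RPM in any library was also lower, 4.17 and 4.16 in the median against 14.8, and its part in these features was not tested. Of the positive genes 20 pairs were neighbours in the annotated order of the genes compared, and 6 of these pairs overlapped. Among the 20 were RD29B with RD29A, HSP70-3 with AT3G09450 and AT3G28220 with AT3G28270. The negative genes gave 1 pair, which overlapped. Overlapping genes may share reads, and whether these counts exceed those of genes taken at random was not tested.

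The authors deposited gene lists by the heat response of each genotype. In the authors' deposited table of 4691 genes down in both genotypes, 4687 had a fold in each; the log2 fold of larp1 was above that of WT in 3711 and below it in 976, with a median gap of 0.30. That list was chosen on the folds themselves, so its direction is no independent evidence. The median difference over all genes compared here was 0.10. The list held 231 of the 399 positive genes and 12 of the 128 negative genes, beside 4659 of all 19349 genes compared. The authors' deposited table of genes down in WT but not in larp1 held 54 genes, of which 50 were compared here and 40 were called positive; these include MC8, RD29B, NATA1, COR15A, CORI3 and PGL5. The authors' deposited table of genes up in WT and not in larp1 held 127 genes, of which 122 were compared here and 29 were called negative, among them DREB19, LBD41, FMO1 and BGLU30. The choice of these lists fixes much of this overlap, since it rests on the same 4 libraries.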

How the data were processed

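RNA-seq was run on 4 pools of whole plantlets, 1 library per combination of genotype and temperature. Ribosomal cDNA was removed with a duplex-specific nuclease, per the labels' protocols, a step that can also lower other abundant transcripts. The submitters' processing notes name BWA 0.5.9 and TAIR10, whereas how reads were counted, and whether by strand, is not given in the sources used here. Signal per exon entry, deposited and called RPM and rounded by the authors to 2 decimals per the file headers, holds 181379 entries without coordinates, of which 132172 are distinct within their gene. The larp1 20 °C column carries an unexplained suffix. The authors' gene lists hold, per the file headers, a fold (ratio) of 38 over 20 °C and log2 values.

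The gene value was the sum of distinct entries, and a read in overlapping exons can enter repeatedly, so intervals are too narrow. The worth of 1 read was read from the steps of the values and used as the pseudocount, for read minimums and for normal 95% intervals on the log2 scale. No count model was fitted, because the rounding is coarse against these steps, and with 1 library per group no test exists. A gene was compared when each genotype had a library with 50 or more of its reads. A gene with 0 reads has a floor of 3 reads.

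The genes named are the 15 positive and 15 negative nuclear calls whose interval bound nearest 0 was farthest from it (100 or more reads in a library of each genotype, and 1 or more in every library), the 3 members of each list with the largest difference and the one with the highest mean, the 5 with most reads of each place, and the LARP1 genes; other members are given as counts or for context. Members and lists were chosen with earlier results of these data known. Histone and ribosomal lists were set by RefSeq product names, which do not separate compartments cleanly. Of the genes 25408 matched the RefSeq table of TAIR10.1, from which symbols, gene models and upstream sequences come; sequences were found by locus, and the deposited table has no coordinates. The calling was also run on simulated reads that varied by counting error alone, so that run cannot show how far pools or libraries vary. Alternatives were TMM, median-of-ratios and organelle-free totals, other read minimums (200, or no minimum), 0.5 RPM as the pseudocount, and other gene values. Python 3.11.15, numpy 2.4.6, pandas 2.3.3 and matplotlib 3.10.9 were used.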

Additional observations from a re-analysis of the deposited data

Results flagged for a closer look

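In 3 genes every library pair moved one way in WT and the opposite way in larp1, with a call in each genotype; the difference was not tested, as each group holds 1 library. RD29B (AT5G52300) was lower after heat in WT, at -1.53, and higher in larp1, at 1.61, a difference of 3.14. NATA1 (AT2G39030) had -1.23 and 1.59, a difference of 2.82. The chitinase gene AT2G43620 had -1.02 and 1.75, a difference of 2.77, with larp1 at 20 °C as its lowest library.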

How the results depend on the processing

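The counts of calls depend on the read minimum and the pseudocount. With no minimum 695 genes were positive and 355 negative, with a minimum of 200 reads 156 and 42, and with a pseudocount of 0.5 RPM 164 and 50. Under TMM scaling 295 were positive and 184 negative, and under median-of-ratios scaling 308 and 177. TMM scaling lowered the median of all genes to -0.0125 and the list medians with it. They became 0.37 for large chaperones, 0.20 for root markers, 0.16 for ABA and dehydration, 0.077 for clock, 0.0687 for mRNA decay, 0.0404 for metacaspases, 0.0397 for reference genes, 0.0175 for HSFs, -0.0355 for histones and -0.0633 for dark and sugar starvation. The others were -0.11 for jasmonate, -0.13 for chloroplast-encoded, -0.15 for salicylic acid, -0.16 for mitochondrion-encoded, -0.17 for auxin, -0.18 for small heat shock proteins, -0.19 for ribosomal proteins, -0.41 for rapid stress, -0.41 for photosynthesis and -0.43 for low-oxygen genes. The histone and the dark and sugar starvation medians thus turned negative. With the largest exon entry alone the small heat shock protein median was 0.10, the low-oxygen median -0.16 and the metacaspase median 0.28. The mitochondrion-encoded median was 0.0566 with no minimum and -0.24 with 200 reads, and the chloroplast-encoded median -0.19 with 200 reads. The cause was not tested beyond the number of genes tested. Of the 527 genes called, 6 turned direction with the largest exon entry alone, none of them named here, and 0 under each other alternative. Among named genes and list members, calls were lost for AT4G18440 under TMM, median-of-ratios and the largest entry, for AT1G57540 under organelle-free totals, 0.5 RPM and all entries, for HOP3 and ROF2 with the largest entry, and for AT1G33055, SAUR36, NIMIN2, SAUR9, PDF1.2, ATCG00330, ATMG00130 and ATMG00640 under 0.5 RPM. Calls were gained by ERF1, ERF6, NCED3, ATMG00210 and ATMG01130 (negative) under both scalings, by NAC019 and LHCB2.3 (negative) under TMM, and by HSP17.4-CIII and AAO3 (positive) with the largest entry. With 200 reads 17 called ones, RD29B and MC8 among them, were no longer compared, and with the largest entry ATCSLA15 was not.

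No paired analysis was possible because each group holds 1 library, and for the same reason none was left out. Every difference rests on all 4 libraries, and how far 1 of them stands from its condition was not tested. Depth limits genes under 50 reads in their lowest library, where 14% to 24% were called.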

Other observations

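Other gene families, taken by RefSeq product name where at least 20 genes were compared, gave 80 names. The highest median difference was that of the NPH3 family of phototropism proteins, 0.43 over 26 genes with 3 positive and 0 negative calls. UDP-glycosyltransferases, which attach sugars to hormones and other small molecules, had 0.38 over 66 genes with 5 positive and 0 negative calls, and AAA-type ATPases had 0.27 over 20 genes. Pentatricopeptide repeat proteins, RNA-binding proteins of the organelles, had 0.26 over 176 genes with 12 positive calls and 1 negative call. The lowest median was that of the SAUR-like auxin genes, -0.26 over 48 genes with 6 positive and 4 negative calls, so this family held calls in both directions. The product names were ranked after their values were seen, and no test was made.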
